A study of Homo sapiens with 48 samples.

Results

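A set of 121 genes was examined that PSN1 cells expressed before and during Talazoparib resistance and expressed less once resistant cells were grown without the drug. Genes were selected on the deposited log2 values themselves. The parental mean and the mean of TalaR-M replicates 1 and 3 had to be at least 3, those means had to lie less than 1 apart, and both had to exceed the TalaR-DF mean by at least 1. Of the 20241 genes in the table, 8679 met the limits on level and on similarity of parental and TalaR-M cells and could therefore have become members, and the 121 members were 1.39% of these. Because the differences between the 3 groups chose the members, those differences are given as a description with no test.

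PSN1 is a human pancreatic ductal adenocarcinoma line, grown in RPMI1640 with fetal bovine serum. Parental cells were wild type and untreated. TalaR-M cells were PSN1 cells with acquired resistance to Talazoparib, an inhibitor of the DNA repair enzymes PARP1 and PARP2 that also traps them on DNA, and were kept in medium with 50 nM Talazoparib for 4 months. TalaR-DF cells were the same resistant line after 4 weeks in drug-free medium. Each group had 3 libraries. The resistant line came from selection in rising concentrations of the drug, and no clone is named for it. Selection history and presence of the drug therefore cannot be told apart in the comparison of TalaR-M with parental cells. Whether the replicates were separate cultures is not given in the sources used here, so p-values measure only the spread between these libraries, which may be technical.

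Values are log2 CPM, where CPM is the counts of a gene scaled to the size of its library with the authors' normalization. Values under 0 were set to 0 in the deposited table. A gene listed at 0 thus had 1 CPM or less. Reads were recovered from the even steps between low values, and those on genes above 1 CPM numbered 8387755 to 14973847 per library (median 13153378), and 1 CPM corresponded to 6.97 reads in TalaR-M replicate 2 and 11.72 to 14.54 reads in the other 8 libraries. TalaR-M replicate 2 stood apart: its difference from replicates 1 and 3 followed transcript length and GC content, and a smooth trend on these took 53.8% of the variance of that difference. The rule left this library out and it is treated separately, so that TalaR-M values given for a gene are those of replicates 1 and 3 unless stated. In every library KRT7, KRT8, KRT18, KRT19 and EPCAM, markers of epithelial and duct cells, were expressed, whereas CDH1, the adherens junction cadherin of epithelia, was at 0 in all 9 libraries. The markers CD3E and LYZ of blood cells, VWF of endothelium, THY1 of fibroblasts and RBFOX3, GFAP and SOX10 of neural cells were also at 0 throughout. Other markers of these lists were expressed. In parental cells the fibroblast markers COL3A1, PDGFRB and LUM had means of 10.36, 6.15 and 5.28. The endothelial marker PECAM1 was at 3.79 and the blood marker CD14 at 3.72. The summed level of the 7 epithelial markers was 1089 to 1143 CPM in parental, 1708 to 5792 CPM in TalaR-M and 952 to 1088 CPM in TalaR-DF libraries. The summed level of the blood markers CD14 and PTPRC was 11.1 to 14.7 CPM in parental, 4.14 to 7.11 CPM in TalaR-M and 1.18 to 2.55 CPM in TalaR-DF libraries. That of the 4 endothelial markers was 14.9 to 16.3, 4.56 to 5.91 and 2.92 to 3.24 CPM, and that of the 4 neural markers 1.23 to 1.58, 1.73 to 5.25 and 1.18 to 2.40 CPM. The 5 fibroblast markers summed to 1401 to 1469, 933 to 2988 and 828 to 939 CPM, most of it COL3A1, without which they summed to 105 to 113, 10.8 to 21.0 and 17.4 to 21.0 CPM. The blood and endothelial sums were lowest in TalaR-DF cells, as the members were. The epithelial sum was also lowest there, but it includes KRT7, a member that the rule chose for being low in TalaR-DF cells. TalaR-DF minus parental (log2) was -1.23 for KRT7 and -1.64 for MUC1, a less abundant marker of that list. It was -0.01 for KRT8, -0.07 for KRT18, 0.03 for KRT19 and 0.57 for EPCAM. The fall of the epithelial sum below parental cells was thus partly built in by the rule. The part of these sums in the results was not tested. In bulk RNA, fewer cells that express a gene and less RNA per cell cannot be told apart.

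Carcinoma cells that take on mesenchymal features commonly make their own extracellular matrix, change their integrins and cadherins and rebuild the actin cytoskeleton. Secreted ligands of the transforming growth factor beta and platelet-derived growth factor families act on the same cells and on stroma. Tumor cells also carry parts of the innate immune system, including complement, cytosolic DNA sensing through STING and genes induced by interferon, and DNA damage such as that left by PARP inhibitors is known to feed into these pathways.

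The members were lower in TalaR-DF than in parental cells by a median of 1.54 and lower than in TalaR-M cells by a median of 1.49 (log2), ranging from 1.00 to 4.66 and from 1.01 to 4.12. At the median member 34.3% of the parental level was left in TalaR-DF cells, with a range of 3.95% to 50.0%. Both differences reached 1.5 in 44 members, 2 in 22 and 3 in 7. TalaR-M was above the parental mean in 57 members and below it in 64, with a median difference of -0.03. No member was at 0 in all 3 TalaR-DF libraries, and GBP4, MCAM and TNFRSF19 were at 0 in at least 1. The TalaR-DF mean stayed at 3 or more in 61 members and was under 1 in 7, so that most members were reduced rather than silent. Every parental value and every value of TalaR-M replicates 1 and 3 lay above every TalaR-DF value in all 121 members, which was also the case in 1109 of the 8679 genes that could have been members.

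**Figure D1:**
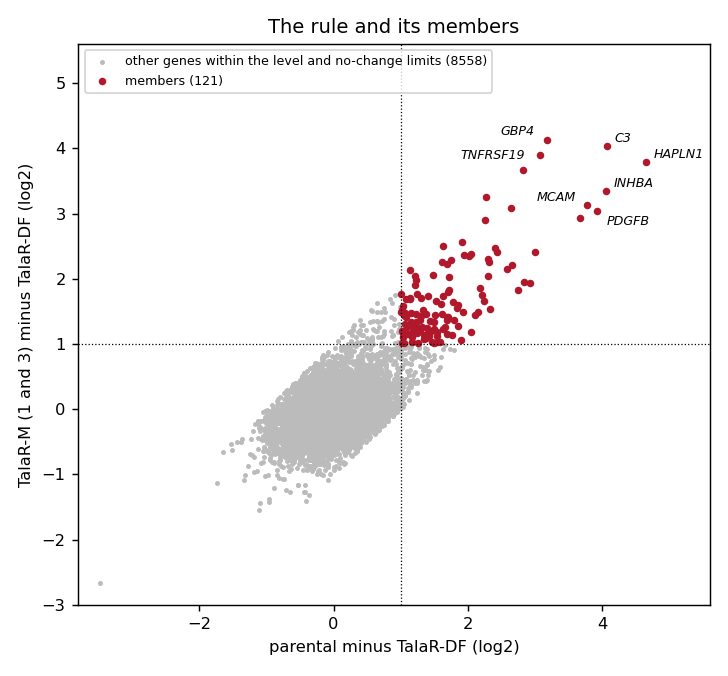
Each point is a gene whose parental mean and mean of TalaR-M replicates 1 and 3 were at least 3 and less than 1 apart. The x axis gives the parental mean minus the TalaR-DF mean and the y axis the TalaR-M mean minus the TalaR-DF mean (log2); dotted lines mark the limit of 1, and the 121 members are the red points to the upper right, where the 7 with both differences of at least 3 are named.

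The spread between replicates was small beside these differences. The median SD of the members was 0.07 in parental and 0.16 in TalaR-DF libraries (n = 3), and 0.09 over TalaR-M replicates 1 and 3. With TalaR-M replicate 2 included it was 0.64. The limma fit of all 9 libraries, with Benjamini-Hochberg adjustment over 12471 genes, called 92 members lower in TalaR-DF than in parental cells and 74 higher in TalaR-M than in TalaR-DF cells, where 7.49% and 5.29% of all genes tested were called in those directions. Without TalaR-M replicate 2 the fit called all 121 members in both comparisons. Since the same differences selected the members, nothing is read from these counts.

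The members near the limits differed little from genes just outside them. TIAM2 and MXD1 had parental means of 3.09 and 3.11, and MYL9 and SLC4A3, both at 2.98, were left out. For the TalaR-M level, EDARADD at 3.03 and TCP11L2 at 3.08 were inside, while SPINT1 at 2.92 and MLXIPL at 2.82 were outside. IFI27L2 and TIAM2 exceeded TalaR-DF by 1.00 and 1.01 in parental cells, against 0.99 for C1RL and 0.98 for FBLIM1. The TalaR-M difference was 1.01 for both GAS7 and SELPLG and just under 1.00 for SLC1A7 and ZFP36. SOX4 and SDC1 differed between TalaR-M and parental cells by -1.0 and 1.00, just inside the limit, and FMNL1 and SLC25A29, also at -1.0 and 1.01, fell outside.

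The 15 leading members, ordered by the smaller of the 2 differences, were C3, HAPLN1, INHBA, GBP4, MCAM, TNFRSF19, PDGFB, TMEM98, EVA1A, NID1, EDARADD, ARID5B, ARHGAP31, PPL and CEMIP.

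**Figure D2:**
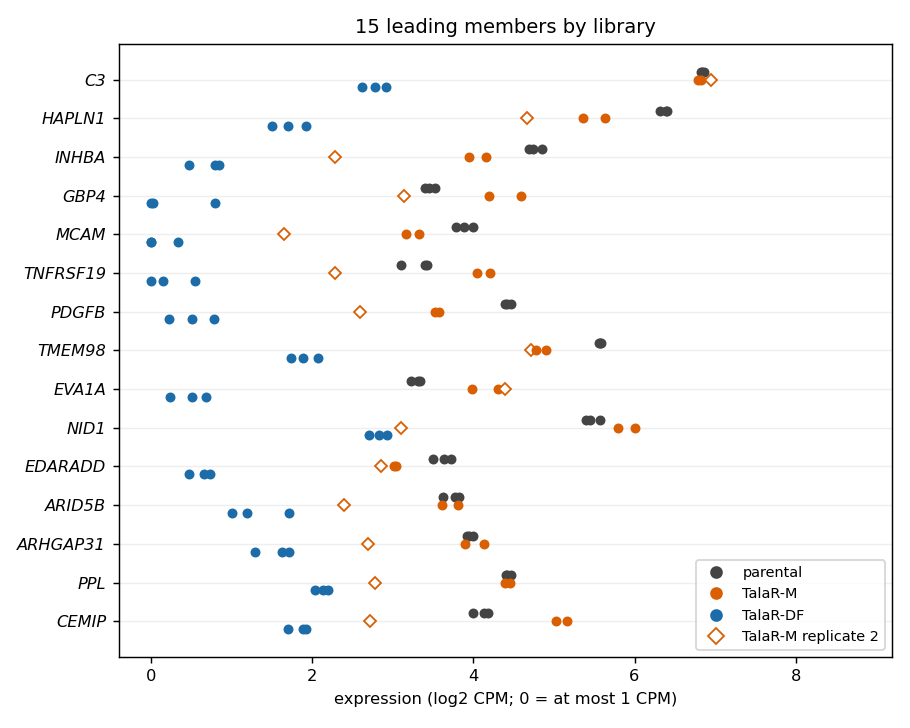
The x axis gives expression in log2 CPM for the 15 leading members (rows); each point is a library, black for parental, orange for TalaR-M and blue for TalaR-DF cells, and the open diamond is TalaR-M replicate 2, which the rule did not use. TalaR-DF points lie to the left of all other points in every row, and the diamond comes closest to them in NID1, at 3.10 beside 2.71 to 2.93.

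Complement and innate immunity held 14 members, with a median of 1.59 for parental minus TalaR-DF and 1.66 for TalaR-M minus TalaR-DF. Roles were given to members only. The sizes of the role groups, here and below, therefore have no share of all genes beside them, and nothing is read from them. C3, the central protein of the complement cascade, led the whole set (hg38 chr19:6677704-6730562, minus strand). It was at 6.86, 6.84 and 6.82 log2 CPM in parental libraries, 6.82 and 6.79 in TalaR-M replicates 1 and 3, and 2.61, 2.77 and 2.92 in TalaR-DF libraries. Parental and TalaR-M cells thus overlapped closely while TalaR-DF cells held 5.95% of the parental level, a 16.8-fold difference. CLU, a secreted chaperone and inhibitor of terminal complement, was at 6.96, 6.80 and 6.82 in parental, 6.63 and 6.51 in TalaR-M and 5.2, 5.11 and 5.15 in TalaR-DF libraries.

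The other complement genes followed from a list of components and regulators, of which 18 were tested with limma. In this list 7 genes were lower and 0 higher in TalaR-DF than in parental cells, and 7 were higher and 0 lower in TalaR-M than in TalaR-DF cells, with median differences of -0.81 and 0.57 beside 0.01 and -0.09 over all genes tested. The members of a list were chosen on these comparisons and are included in its counts here and below. Without C3 and CLU, 5 of 16 genes were lower in the first comparison and 5 higher in the second. The background was 2.25% of all genes called higher and 7.49% called lower in the first comparison, and 5.29% called higher and 1.64% called lower in the second. CFB, a protease subunit of the alternative pathway, was no member because its parental mean was 2.24. It was at 2.25, 2.13 and 2.34 in parental, 3.23, 3.77 and 3.25 in TalaR-M and 0.14, 0.47 and 0.14 in TalaR-DF libraries. TalaR-DF cells were lower than parental cells by 1.99 ± 0.19 (SE, adjusted p = 0.000172 by limma) and TalaR-M cells were higher than TalaR-DF cells by 3.17 ± 0.19 (adjusted p = 4.0e-05 by limma). C1R, the first protease of the classical pathway, exceeded the parental mean in TalaR-M replicates 1 and 3 by 1.19 and so was also left out, with 2.66, 2.24 and 2.51 in TalaR-DF libraries.

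Of the genes induced by interferon, GBP4, MX2, SAMD9L and BST2 were members. GBP4, a guanylate-binding GTPase, was at 3.45, 3.52 and 3.40 in parental, 4.60 and 4.19 in TalaR-M and 0, 0.03 and 0.79 in TalaR-DF libraries, where the lowest value is the floor of the table. MX2, an antiviral dynamin-like GTPase, was at 3.25, 3.19 and 3.22, 3.98 and 3.77 and 1.66, 0.74 and 1.51 in the same order. TalaR-M replicates 1 and 3 lay above all parental values of these genes, and TalaR-DF lay below both. In TalaR-M replicate 2 GBP4 was at 3.14, below all its parental values, and MX2 at 3.78, above all of its own. BST2, the membrane protein tetherin, was far more abundant and less reduced, at 7.03, 6.86 and 6.99, 7.17 and 7.06 and 5.93, 5.71 and 5.81. SAMD9L, another antiviral effector, differed by 1.69 from parental and 2.23 from TalaR-M cells. Over the interferon list, 54 genes were tested, of which 8 were lower and 1 higher in TalaR-DF than in parental cells, and 14 were higher and 1 lower in TalaR-M than in TalaR-DF cells. The medians were -0.20 and 0.51, and the single lower gene was lost in the replicate block and without any 1 library other than TalaR-M replicate 1 or 3. Non-members GBP2, OASL and IRF7 were lower in TalaR-DF than in parental cells by 2.60, 2.56 and 1.82 (adjusted p = 2.7e-05, 1.2e-05 and 0.00344 by limma).

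TMEM173, which encodes STING, the adaptor of cytosolic DNA sensing, was at 3.77, 3.79 and 3.70 in parental, 3.41 and 3.53 in TalaR-M and 1.95, 1.58 and 2.22 in TalaR-DF libraries. CASP1, the protease of the inflammasome, was at 4.04, 4.19 and 4.01, 3.73 and 3.56 and 1.63, 1.58 and 1.29. For both genes TalaR-M lay slightly below parental cells and TalaR-DF well below them. The remaining immune members were IL1R1, the interleukin 1 receptor, MR1, which presents small metabolites, RARRES3, a phospholipase also known as PLAAT4, SELPLG, the ligand of P-selectin, IFI27L2 and HLA-DRB1. HLA-DRB1 was the only class II gene in the set, at 6.26, 6.30 and 6.32 in parental, 7.13 and 6.96 in TalaR-M and 5.11, 5.13 and 4.96 in TalaR-DF libraries. Its reads may be shared with the near-identical HLA-DRB5, so its level is uncertain. Of the 11 class II genes tested, 6 were lower and 0 higher in TalaR-DF than in parental cells and 10 were higher and 0 lower in TalaR-M than in TalaR-DF cells. HLA-DPA1 and HLA-DRB5 were above the parental mean by over 1 in TalaR-M cells, at 5.33 and 5.04 against 3.50, 3.55 and 3.34, and at 6.44 and 6.19 against 3.57, 3.68 and 3.68. HLA-DQB1 was below it by over 1, at 3.18 and 2.96 against 4.01, 4.30 and 4.2. All 3 were therefore no members, although each was lower in TalaR-DF than in parental cells, by 2.19, 1.56 and 3.27 (adjusted p = 0.000172, 0.00129 and 3.9e-05 by limma). Of 17 tested genes of class I presentation, 1, HLA-E, was lower in TalaR-DF than in parental cells, and 3 were without TalaR-M replicate 2 or 3. In TalaR-M against TalaR-DF cells 5 were higher and 0 lower, with 3 higher without TalaR-DF replicate 2 or 3.

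The secreted ligands, receptors and their adaptors numbered 11 and differed from parental cells by a median of 1.86. In 10 of the 11 the mean of TalaR-M replicates 1 and 3 was below parental, with a median of -0.54 over the group. TalaR-M replicate 2 differed, with IGFBP6, MDK, RAMP1, GPRC5C and STRA6 above all their parental values. INHBA, PDGFB, EDARADD, KSR1 and BCAR3 were below all their parental values in replicate 2 as well. INHBA, the beta A subunit that forms activin A, was at 4.85, 4.70 and 4.74 in parental, 3.95 and 4.16 in TalaR-M and 0.84, 0.47 and 0.79 in TalaR-DF libraries. PDGFB, a chain of platelet-derived growth factor, was at 4.42, 4.40 and 4.47, 3.52 and 3.57 and 0.79, 0.22 and 0.50. TalaR-M cells were below parental cells by 0.71 for INHBA and 0.88 for PDGFB, and all TalaR-DF values of both ligands were under 1. TNFRSF19, a receptor of the tumor necrosis factor family, was the exception of the group in TalaR-M replicates 1 and 3. These were above parental values, at 4.21 and 4.04 against 3.40, 3.43 and 3.10, with 0.14, 0.54 and 0 in TalaR-DF libraries. In TalaR-M replicate 2 TNFRSF19 was at 2.28, below all its parental values. EDARADD, the death domain adaptor of the ectodysplasin receptor, was at 3.72, 3.50 and 3.64, 3.02 and 3.05 and 0.73, 0.47 and 0.66. Further members of this group were the heparin-binding growth factor MDK, the binding protein IGFBP6, the scaffold KSR1 of the RAF-MEK-ERK cascade, the adaptor BCAR3, the receptor partner RAMP1, the retinol-binding protein receptor STRA6 and the orphan receptor GPRC5C.

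INHBA was the only member among 36 tested genes of the TGF-beta and BMP pathway, of which 4 were lower and 1 higher in TalaR-DF than in parental cells. The lower count was 2 without parental replicate 1, TalaR-DF replicate 2 or TalaR-DF replicate 3 and 1 without parental replicate 2. In TalaR-M against TalaR-DF cells 4 were higher and 2 lower, with 1 lower without TalaR-M replicate 2 or TalaR-DF replicate 2. PDGFB and IGFBP6 were the members among 78 tested receptor tyrosine kinases and their ligands, of which 24 were lower and 4 higher in TalaR-DF than in parental cells and 10 were higher and 3 lower in TalaR-M than in TalaR-DF cells. Of the 82 chemokines, cytokines and receptors tested, 25 were lower and 2 higher in TalaR-DF than in parental cells, and TNFRSF19 and IL1R1 were members. In TalaR-M against TalaR-DF cells 13 were higher and 3 lower, with 6 higher without TalaR-DF replicate 3. That list depended on low values, with 12 lower after a minimum of 5 CPM in 3 or more libraries.

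Extracellular matrix proteins and enzymes acting on its sugars made up 15 members. HAPLN1, which links hyaluronan to proteoglycans, had the largest difference between parental and TalaR-DF cells of any member (chr5:83637805-83720855, minus strand). It was at 6.39, 6.31 and 6.40 in parental, 5.63 and 5.36 in TalaR-M and 1.69, 1.92 and 1.51 in TalaR-DF libraries, with 3.95% of the parental level left. EDIL3, an integrin-binding matrix protein whose gene also lies on chromosome 5, was less reduced, at 6.71, 6.69 and 6.58, 7.05 and 6.92 and 5.19, 5.27 and 5.31. NID1, the basement membrane glycoprotein that bridges laminin and collagen IV, was at 5.44, 5.40 and 5.57 in parental, 6.01 and 5.79 in TalaR-M and 2.93, 2.71 and 2.83 in TalaR-DF libraries. CEMIP, which depolymerizes hyaluronan, and LOXL4, a lysyl oxidase that crosslinks collagen, were highest in TalaR-M replicates 1 and 3. In TalaR-M replicate 2 LOXL4 was at 4.01, but CEMIP was at 2.72, below all its parental values. CEMIP was at 4.00, 4.18 and 4.13, 5.03 and 5.16 and 1.69, 1.92 and 1.89, and LOXL4 at 3.40, 3.19 and 3.49, 4.14 and 3.87 and 1.57, 0.81 and 0.92 in the order parental, TalaR-M and TalaR-DF.

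FN1, which encodes fibronectin, was the most abundant member on the scale of reads and also per kilobase of transcript, where the parental level was 9.35 log2 CPM per kilobase beside 8.91 for LGALS1 and 8.37 for MYL6. FN1 was at 12.44, 12.43 and 12.38 in parental, 11.99 and 12.11 in TalaR-M and 10.69, 11.08 and 10.85 in TalaR-DF libraries. The members together summed to 11507 to 11826 CPM in parental, 10659 and 10525 CPM in TalaR-M replicates 1 and 3, and 3852 to 4243 CPM in TalaR-DF libraries. FN1 alone gave 38.3% to 50.9% of these sums, and without it they were 6117 to 6275, 6579 and 6095, and 2082 to 2197 CPM. SULF2, a sulfatase that trims heparan sulfate at the cell surface, was next in parental level, at 8.81, 8.77 and 8.78, 8.99 and 8.87 and 7.29, 7.22 and 7.30. LGALS1, a secreted galactoside-binding lectin, was at 8.0, 7.97 and 8.0, 8.42 and 8.22 and 7.04, 6.94 and 6.74. SDC1, a heparan sulfate proteoglycan, was at 3.8, 3.66 and 3.56, 4.74 and 4.61 and 2.55, 2.41 and 2.64. The last 2 genes differed from parental cells by 1.08 and 1.14 and more from TalaR-M cells, by 1.41 and 2.14.

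Over the list of matrix glycoproteins and proteoglycans, 56 genes were tested, with 16 lower and 6 higher in TalaR-DF than in parental cells and 14 higher and 4 lower in TalaR-M than in TalaR-DF cells. NID1, FN1 and SDC1 were the members in this list. The collagen list held LOXL4 as its only member, and 10 of 41 tested genes were lower and 0 higher in TalaR-DF than in parental cells. In TalaR-M against TalaR-DF cells 4 of these were higher and 1 lower, and without TalaR-M replicate 2 there were 10 higher. COL1A2, a chain of type I collagen, showed another pattern and was no member. It was at 7.86, 7.86 and 7.88 in parental libraries, at 0 in all 3 TalaR-M libraries and at 3.90, 3.67 and 3.74 in TalaR-DF libraries. All TalaR-DF values therefore lay between those of parental and TalaR-M cells.

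Cell adhesion held 9 members, of which 8 were below parental in the mean of TalaR-M replicates 1 and 3, by up to 0.92. MCAM, an adhesion molecule of the immunoglobulin superfamily, was at 3.99, 3.79 and 3.88 in parental, 3.33 and 3.17 in TalaR-M and 0, 0 and 0.33 in TalaR-DF libraries. The desmosome and cornified envelope plakins PPL and DSP were nearly equal in parental cells and TalaR-M replicates 1 and 3. PPL was at 4.40, 4.42 and 4.47, 4.39 and 4.45 and 2.14, 2.20 and 2.04, and DSP, which anchors intermediate filaments to desmosomes, at 6.68, 6.72 and 6.66, 6.58 and 6.66 and 4.24, 4.48 and 4.39. TalaR-DF cells kept 20.2% and 20.1% of the parental levels. In TalaR-M replicate 2 PPL was at 2.77 and DSP at 4.57, below all their parental values and above all their TalaR-DF values. CDH6, a cadherin, differed by 2.75 from parental and 1.83 from TalaR-M cells. L1CAM, the integrins ITGB8, ITGB4 and ITGA1 and the scaffold DLG3 differed from parental cells by 1.38 to 1.66. In the list of cadherins, integrins and junction proteins 64 genes were tested, with 17 lower and 4 higher in TalaR-DF than in parental cells and 12 higher and 1 lower in TalaR-M than in TalaR-DF cells. The first count was 10 with the minimum of 5 CPM, and the last was 3 without TalaR-M replicate 1 and 2 without TalaR-DF replicate 1.

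Cytoskeletal genes numbered 24 members, with a median of 1.5 against parental and 1.51 against TalaR-M cells. This was the largest role group, but the share of such genes among those that could have been members was not counted. ARHGAP31, which inactivates RAC1 and CDC42, was at 3.99, 3.92 and 3.94 in parental, 4.14 and 3.90 in TalaR-M and 1.63, 1.71 and 1.29 in TalaR-DF libraries. MAP1B, a microtubule-associated protein, was among the 6 most abundant members in parental cells, at 7.56, 7.53 and 7.54, 7.29 and 7.28 and 5.07, 5.38 and 5.29. It had a far larger difference than MYL6, a light chain of myosin, which was at 7.85, 7.89 and 7.87, 8.08 and 7.83 and 6.98, 6.66 and 6.90, and CKAP4, an anchor of the endoplasmic reticulum to microtubules, at 7.63, 7.62 and 7.65, 8.10 and 8.0 and 6.69, 6.47 and 6.54. Other members were the actin-severing GSN, the actin-binding TPM1, CNN2 and MYO6, the LIM proteins FHL1, LMO7, CRIP2 and ZNF185, and KRT7, a duct keratin, at 7.48, 7.47 and 7.45, 7.58 and 7.45 and 6.36, 6.14 and 6.21. TUBA1A, an alpha tubulin, has near-identical copies, so that its reads may be shared.

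**Figure D3:**
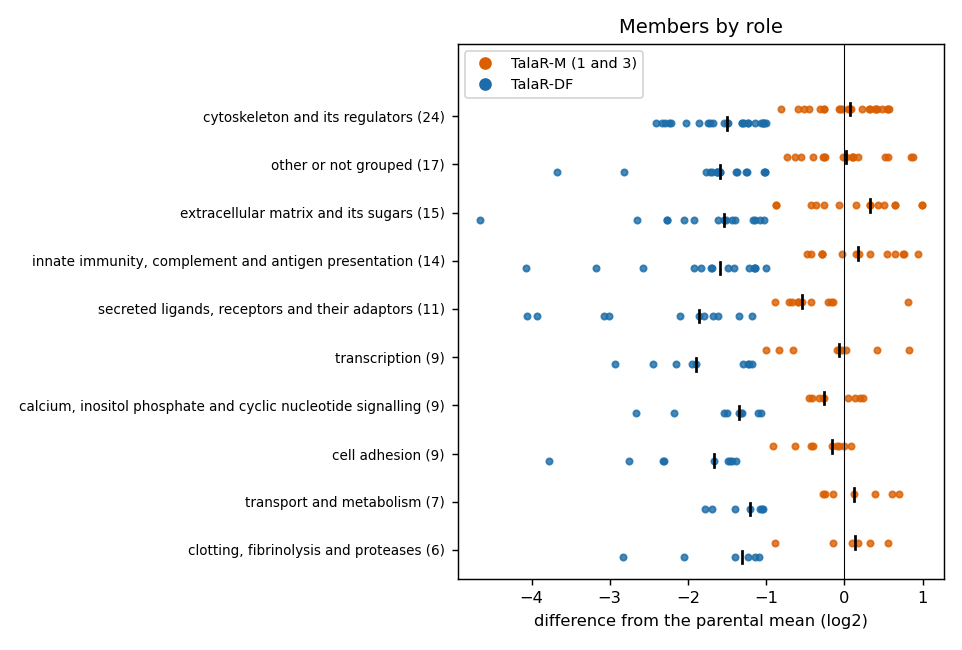
Each row is a role group with its number of members, and each point a member, orange for the mean of TalaR-M replicates 1 and 3 and blue for the TalaR-DF mean, as the difference from the parental mean (log2, x axis); black bars are medians. Blue points lie at -1.0 or lower because of the rule, and the orange medians run from -0.54 for secreted ligands and receptors to 0.33 for extracellular matrix.

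The mesenchymal and epithelial lists both held members. INHBA, FN1, TPM1 and LGALS1 came from the mesenchymal list, where 14 of 48 tested genes were lower and 3 higher in TalaR-DF than in parental cells and 12 were higher and 4 lower in TalaR-M than in TalaR-DF cells. Without TalaR-M replicate 2, 21 were higher, and without TalaR-DF replicate 2 or 3, 2 were lower. DSP, SPINT2 and KRT7 came from the epithelial list, where 11 of 31 tested genes were lower and 1 higher in TalaR-DF than in parental cells and 12 were higher and 0 lower in TalaR-M than in TalaR-DF cells. The lower count was 6 without parental replicate 2 and 7 without parental replicate 1. SNAI2, which encodes the transcription factor SLUG, was at 0.59, 0.60 and 0.67 in parental libraries, at 1.46, 0.18 and 1.36 in TalaR-M replicates 1, 2 and 3 and at 0 in all 3 TalaR-DF libraries. Replicate 2 lay below all parental values, and limma called the gene in neither comparison (adjusted p = 0.224 for TalaR-DF against parental and 0.0698 for TalaR-M against TalaR-DF). PARP1, the target of the drug, was at 9.08, 9.02 and 9.05 in parental, 8.87, 8.14 and 8.70 in TalaR-M replicates 1, 2 and 3 and 9.18, 9.16 and 9.19 in TalaR-DF libraries, and ABCB1, a drug efflux pump, was at 0 in all 9.

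Transcription held 9 members. ARID5B, a DNA-binding partner of a histone demethylase, was at 3.82, 3.78 and 3.63 in parental, 3.81 and 3.61 in TalaR-M and 1.00, 1.71 and 1.19 in TalaR-DF libraries. SOX4, a high mobility group factor, was at 5.62, 5.6 and 5.67, 4.60 and 4.66 and 2.93, 2.58 and 2.58. It was the member with the largest loss already present in TalaR-M replicates 1 and 3, just inside the limit of 1 that the rule set. With all 3 TalaR-M libraries, TalaR-M minus parental was -1.07 for SOX4 and lower for other members, such as KSR1 at -1.48. TFAP2A, a factor of neural crest and epidermis, was instead above parental in TalaR-M cells, at 3.46, 3.45 and 3.52, 3.88 and 3.90 and 1.84, 1.13 and 1.62. In TalaR-M replicate 2 TFAP2A was at 3.29, below all its parental values. JUN, a subunit of AP-1, was at 6.10, 6.07 and 6.10, 6.05 and 6.0 and 4.98, 4.85 and 4.74, with TalaR-M values just below parental ones. The homeobox gene ALX4, the forkhead gene FOXL1, the MYC antagonist MXD1, CREB3L1 and HR completed the group. Among 99 tested lineage transcription factors, 21 were lower and 2 higher in TalaR-DF than in parental cells, with SOX4 and TFAP2A as members. In TalaR-M against TalaR-DF cells 9 were higher and 3 lower, with 5 higher without TalaR-DF replicate 1 and 6 lower without TalaR-M replicate 1. FOXL1 was a member in the list of homeobox and forkhead genes, which lacks ALX4. Of the 98 genes tested in it, 13 were lower and 6 higher in TalaR-DF than in parental cells and 5 were higher and 2 lower in TalaR-M than in TalaR-DF cells. The 5 became 10 without TalaR-M replicate 2 and 1 without TalaR-DF replicate 3.

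Signalling through calcium and cyclic nucleotides held 9 members with a median of 1.34 against parental cells, led by ITPR2, a calcium release channel of the endoplasmic reticulum, at 6.62, 6.54 and 6.57 in parental, 6.06 and 6.18 in TalaR-M and 3.68, 3.96 and 4.10 in TalaR-DF libraries. The phosphodiesterases PDE4B and PDE5A, the plasma membrane calcium pump ATP2B4 and the ATP-gated channel P2RX4 differed from parental cells by 1.33, 1.30, 1.34 and 1.07. Clotting and fibrinolysis contributed PLAT, the tissue plasminogen activator, at 6.31, 6.26 and 6.28, 6.71 and 6.50 and 4.19, 4.36 and 4.14, together with F3, the tissue factor that starts coagulation, THBD, which restrains thrombin, the protease inhibitors SERPINE2 and SPINT2 and the calpain CAPN5. SPINT2 differed most from parental cells within this group, by 2.83. Transport and metabolism held 7 members, among them the water channel AQP1, at 5.68, 5.63 and 5.67, 5.58 and 5.46 and 3.93, 3.77 and 3.93. The ungrouped members included TMEM98, a membrane protein, at 5.57, 5.58 and 5.56, 4.90 and 4.77 and 2.07, 1.74 and 1.89, EVA1A, a regulator of autophagy, at 3.31, 3.34 and 3.23, 4.31 and 3.98 and 0.23, 0.68 and 0.50, and CDKN1C, an inhibitor of cyclin-dependent kinases, which differed by 1.59 and 1.62.

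Without their members, the lists described so far had these counts lower in TalaR-DF than in parental cells, beside 6.82% of the 12350 non-members tested. The interferon list had 5 of 50, class II 5 of 10, TGF-beta and BMP 3 of 35, receptor tyrosine kinases 23 of 76 and cytokines 24 of 80. Matrix glycoproteins had 14 of 53, collagens 9 of 40, adhesion 12 of 58, mesenchymal genes 12 of 44, epithelial genes 8 of 28, lineage transcription factors 19 of 97 and homeobox and forkhead genes 12 of 97. Higher in TalaR-M than in TalaR-DF cells, beside 4.74% of non-members, were 11, 9, 3, 8 and 12 genes of the first 5 lists and 13, 3, 9, 9, 10, 7 and 4 of the other 7, in the same order.

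The remaining lists held few members or none, and their counts include the members. Of 65 tested matrix proteases and protease inhibitors, 21 were lower and 6 higher in TalaR-DF than in parental cells and 16 were higher and 4 lower in TalaR-M than in TalaR-DF cells, with PLAT, SPINT2 and SERPINE2 as members. Of 111 ion channels, with ITPR2 and P2RX4 as members, 24 were lower and 6 higher and then 19 higher and 8 lower in the same 2 comparisons. Of 246 solute carriers and ABC transporters, with AQP1 and SLC43A2 as members, the counts were 30 lower and 9 higher and then 27 higher and 7 lower, the last being 11 without TalaR-M replicate 1. Of 81 G protein-coupled receptor genes, with GPRC5C and RAMP1 as members, they were 22 and 7 and then 9 and 10. Of 468 genes named ZNF, ZSCAN, ZKSCAN or ZFP, with ZNF185 as the member among them, they were 14 and 6 and then 24 and 2.

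None of the 53 genes of the Wnt, Notch and Hedgehog pathways, the 44 of axon guidance, the 27 p53 targets, the 35 of hypoxia and glycolysis, the 32 of cholesterol and fatty acid synthesis, the 32 of proliferation, the 15 histones and the 17 of class I presentation was a member. The genes that could have been members numbered 15, 16, 16, 21, 26, 26, 4 and 14 in these lists. In TalaR-DF against parental cells the Wnt list had 9 lower and 5 higher genes, axon guidance 9 and 4, p53 targets 4 and 1, hypoxia 9 and 0, cholesterol 3 and 0, proliferation 0 and 1 and histones 0 and 0. In TalaR-M against TalaR-DF cells they had 8 higher and 2 lower, 3 and 0, 4 and 1, 1 and 6, 1 and 1, 0 and 0, and 2 and 0 genes. Several of these small counts moved by more than 1.5 times when 1 library was left out. Axon guidance had 10 higher without TalaR-M replicate 2. Hypoxia had 3 lower without any 1 of the TalaR-DF replicates, and p53 targets then had 1 or 2 higher. The single p53 target and the single proliferation gene higher in TalaR-DF than in parental cells were lost without TalaR-DF replicate 1, among other libraries.

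TalaR-M replicate 2 was the only library the rule did not use. It is a single library, so no test was made, and the TalaR-DF mean to which it was compared had entered the rule. In it, 64 of the 121 members (52.9%) were at least 1 above the TalaR-DF mean, where 15.2% of the 9671 genes with a parental mean of at least 3 were, and the median difference from TalaR-DF was 1.09 in members and -0.48 in those genes. Of the 395 genes lower by at least 1 in both TalaR-M and TalaR-DF than in parental cells, 15.9% reached 1, with a median of -0.16. Replicate 2 was above all 3 TalaR-DF libraries in 90 members and under the TalaR-DF mean in 25.

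**Figure D4:**
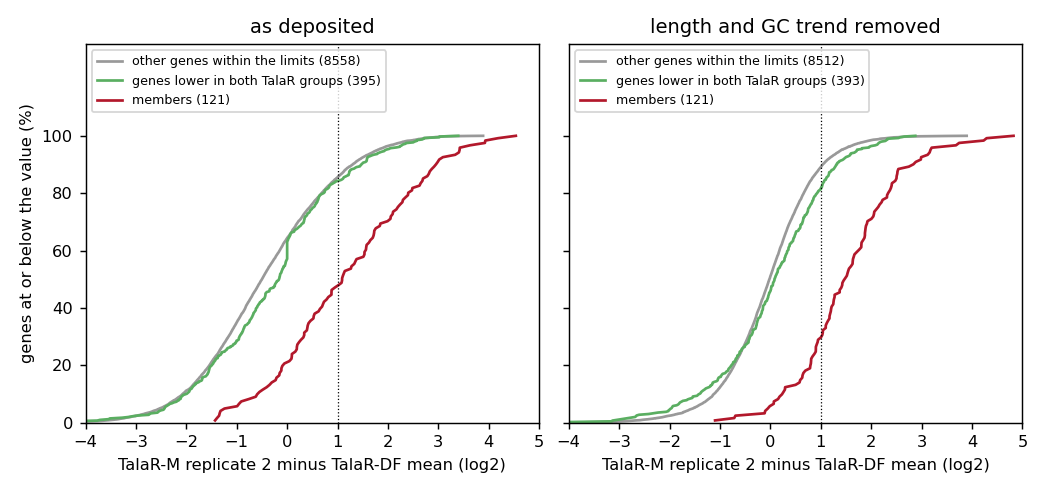
Cumulative curves of TalaR-M replicate 2 minus the TalaR-DF mean (log2, x axis) as the percentage of genes at or below each value (y axis), for the members, for other genes within the level and similarity limits, and for genes lower in both TalaR groups. The left panel uses the deposited values and the right panel values after removal of the trend on length and GC; the curve of the members lies to the right of both others, with medians of 1.09 and 1.49.

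Transcript length moved with the members' values in replicate 2. Its median difference from replicates 1 and 3 was -1.35 in the 60 members with longer transcripts and 0.25 in the 61 with shorter ones, and 19 of the former and 45 of the latter reached 1 above TalaR-DF. The 5 lowest members were TCP11L2, KSR1, FN1, ALDH1L2 and ABI3BP, at 1.32 to 1.43 under the TalaR-DF mean, and the 5 highest were IFI27L2, C3, IGFBP6, EVA1A and LGALS1, at 3.63 to 4.54 above it. FN1 was at 9.52 in replicate 2, beside 11.99 and 12.11 in replicates 1 and 3, and LGALS1 at 10.54 beside 8.42 and 8.22. C3 did not follow this pattern, at 6.95 beside 6.82 and 6.79. After removal of the trend, 86 members (71.1%) were at least 1 above TalaR-DF, beside 12.5% of genes with a parental mean of at least 3, and the medians were 1.49 and -0.01. By role, 11 of the 14 immune members and 9 of the 11 secreted ligands and receptors reached 1 as deposited. So did 3 of 9 calcium and cyclic nucleotide genes, 3 of 9 adhesion genes and 6 of 15 matrix genes. The trend on length and GC was still in these values, so the counts do not compare the roles.

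**Figure D5:**
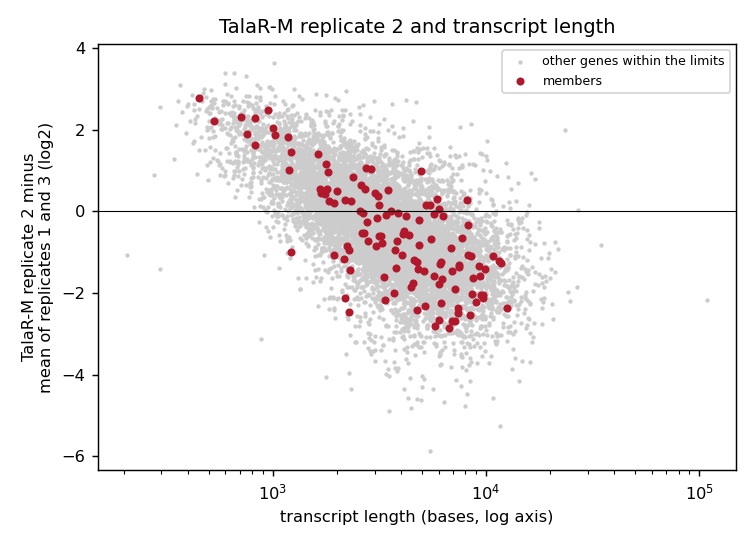
The x axis gives transcript length in bases on a log axis and the y axis TalaR-M replicate 2 minus the mean of replicates 1 and 3 (log2), with members in red and other genes within the limits in grey. Values go down as transcripts get longer in both, and the median of the longer members is -1.35 against 0.25 for the shorter ones.

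The members had somewhat longer transcripts than the genes that could have been members, with medians of 3866 and 3515 bases, and a higher GC content, with medians of 52.3% and 47.5%. They were spread over all autosomes and X, with 14 on chromosome 1, 13 on chromosome 11 and 11 on chromosome 12, which were 1.55%, 2.51% and 2.55% of the genes there that could have been members. On chromosome 12 the median of parental minus TalaR-DF over those genes was 0.35, the highest of any chromosome, beside -0.33 to 0.13 on the others. Another member started within 500 kb of 8 members (6.61%), beside 7.32% of the genes that could have been members. These were the pairs NID1 and EDARADD, CREB3L1 and MDK, CKAP4 and TCP11L2, and PALM and CNN2. NID1 (chr1:235975830-236065109) and EDARADD (chr1:236348257-236502915) lie on opposite strands of chromosome 1. No group of 3 or more members was found at this distance.

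RefSeq promoter windows, from 250 bases before to 50 bases after the gene start (GRCh38.p14), were at hand for 81 members and for 7207 genes that could have been members. The RefSeq start lay within 1000 bases of the GENCODE gene start in 63 of the 81 and farther away in 18. The observed over expected ratio of CG had a median of 0.69 in members and 0.86 in the genes that could have been members, and it was at least 0.6 in 63.0% and 88.6% of them, beside 49.0% of all 27305 windows. The motif TATAAA, on either strand, was in 10 members (12.3%), in 4.63% of the genes that could have been members and in 12% of all windows. Of the other motifs, the E-box CAGGTG was in 17.3%, 16.6% and 20.6%, the AP-1 motif TGANTCA in 6.17%, 3.87% and 7.76%, the interferon-stimulated response element core GAAANNGAA in 4.94%, 6.24% and 8.29%, the NF-kB motif GGGNNTTCC in 9.88%, 8.24% and 6.60%, and the Sp box GGGCGG in 61.7%, 73.0% and 44.6%, all on both strands and in the same order. A match is a description of the letters and no evidence of binding.

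A TATAAA that starts 20 to 40 bases before the gene start on the strand of the gene, where a TATA box usually lies, was counted after the motifs had been seen. It was in 5 members (6.17%), in 1.18% of the genes that could have been members and in 2.55% of all windows. The 80 bases before the start of these 5 members are shown with TATAAA in capitals, because CEMIP, a leading member of the matrix group, AQP1, the matrix protein gene MAMDC2, the actin regulator PHACTR2 and TFAP2A share this feature. The starts are those of RefSeq, and that of PHACTR2 lies 71335 bases inside the gene as GENCODE gives it and that of CEMIP 27 bases inside. The RefSeq start of MAMDC2 is at -267 bases from its GENCODE start.
AQP1 (chr7:30911773-30911852, plus strand): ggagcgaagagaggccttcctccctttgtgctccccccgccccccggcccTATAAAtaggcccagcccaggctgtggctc
CEMIP (chr15:80779290-80779369, plus strand): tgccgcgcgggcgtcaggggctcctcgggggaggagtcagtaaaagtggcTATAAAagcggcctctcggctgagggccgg
MAMDC2 (chr9:70043501-70043580, plus strand): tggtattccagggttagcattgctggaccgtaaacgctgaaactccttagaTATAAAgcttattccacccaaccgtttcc
PHACTR2 (chr6:143608100-143608179, plus strand): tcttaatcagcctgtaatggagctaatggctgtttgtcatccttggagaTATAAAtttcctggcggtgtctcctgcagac
TFAP2A (chr6:10419660-10419739, minus strand): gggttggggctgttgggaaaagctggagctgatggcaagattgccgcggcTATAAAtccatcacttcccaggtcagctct
The interferon-stimulated response element core was in the windows of ATP2B4, BST2, GBP4 and HLA-DRB1. Of GBP4, SAMD9L and BST2, the interferon members with a window, BST2 had a match wholly before its start, and MX2 was not examined. The 250 bases before that start (chr19:17405631-17405880, minus strand) hold 2 overlapping copies, in capitals, and are shown because they carry the motif of the pathway to which BST2 belongs.
BST2: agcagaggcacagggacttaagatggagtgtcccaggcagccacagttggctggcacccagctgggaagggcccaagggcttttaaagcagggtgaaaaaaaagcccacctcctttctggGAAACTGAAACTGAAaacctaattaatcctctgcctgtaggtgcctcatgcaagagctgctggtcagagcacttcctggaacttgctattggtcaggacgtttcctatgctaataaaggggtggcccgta
BST2 was the least reduced of the 4 interferon members, by 1.15 against parental cells. The rule chose all of these for a difference of at least 1, and the median of TalaR-DF minus parental over the 54 tested interferon genes was -0.20. GBP4, the most reduced of the interferon members, had a match in its window but none wholly before its start, and SAMD9L had none in its window.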

How the data were processed

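Poly(A) RNA of 9 PSN1 libraries was sequenced in paired ends with a stranded kit. The deposited table held log2 CPM per gene for 20241 genes, which the authors had normalized and in which values below 0 were set to 0. The submitters' processing notes name hg38, whereas the aligner, counter and annotation are not given in the sources used here. Members were selected on group means of these values, and members and gene lists were chosen with earlier results of these data known; role groups were assigned once the members were known.

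For the lists, limma (version 3.58.1, R 4.3.3, trend on mean level) was fitted to all 9 libraries over 12471 genes above 0 in at least 3 libraries, and genes were called where the log2 difference was at least 1 and the p, adjusted by Benjamini-Hochberg, under 0.05. The script was tested on simulated data. The length and GC trend of TalaR-M replicate 2 was fitted with mgcv (version 1.9.3). Positions came from GENCODE 44, which matched 93.0% of genes by symbol. Fold changes are on the log2 CPM scale.

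Genes named with values were the first 15 members by the smaller difference, the 6 highest in parental cells, up to 5 members and 3 called non-members per list, the 2 nearest each limit on each side, the 5 lowest and 5 highest in TalaR-M replicate 2, and SNAI2, PARP1 and ABCB1. TMEM173, CASP1, EDIL3, JUN, CDKN1C, PDE4B, PDE5A and ATP2B4 were added for their functions after their values were seen. A marker gene of the blood list is not reported here.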

Additional observations from a re-analysis of the deposited data

How the results depend on the processing

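With other limits the set held 75 genes at a level of at least 4, 172 at a level of at least 2 and 44 with differences of at least 1.5. It held 109 genes with the mean of all 3 TalaR-M replicates (78 shared with the 121) and 131 after median-ratio rescaling (120 shared). That rescaling moved TalaR-M replicate 2 by 0.327 and the other libraries by -0.078 to 0.011. Leaving out single libraries gave 117 to 130 genes, of which 112 to 117 were shared. The share of members with another member nearby, 6.61% within 500 kb, was 3.31% within 200 kb and 14.9% within 1000 kb. Genes higher in TalaR-M than in TalaR-DF cells numbered 660, and 439 with a minimum of 5 CPM. Genes lower in that comparison numbered 204, and 124 to 348 when 1 library was left out, with 348 without TalaR-M replicate 1 and 127, 125 and 124 without TalaR-DF replicates 1, 2 and 3.

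Between libraries with the same replicate number, correlations of their deviations from the group means ran from -0.311 to 0.158. The offset of TalaR-M replicate 2 enters all TalaR-M deviations, so these values cannot settle whether the libraries were paired. With a replicate block, 251 genes were higher and 881 lower in TalaR-DF than in parental cells (280 and 934 without the block), 587 were higher and 163 lower in TalaR-M than in TalaR-DF cells, and 652 were higher and 894 lower in TalaR-M than in parental cells (690 and 963 without it). The block called 84 members in the first and 64 in the second comparison. Members of TalaR-M replicate 2 at least 1 above TalaR-DF numbered 75 after rescaling and 61 to 64 when 1 TalaR-DF library was left out, an alternative chosen after seeing the data. No named member changed direction when a library of the rule was left out or a pseudocount of 1 CPM was added. Neither step could give another outcome, since every parental and TalaR-M replicate 1 or 3 value of a member lay above all its TalaR-DF values. These alternatives do not use TalaR-M replicate 2, in which 25 members lay under the TalaR-DF mean, FN1, TCP11L2, KSR1 and ALDH1L2 among them. Depth limits genes near 1 CPM, a level that stood for 6.97 to 14.54 reads per library.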
